A study of Drosophila melanogaster with 36 samples.

Results

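Whole adult male flies that carried dSOD1, a UAS transgene of the wild-type Drosophila enzyme, were compared between 3 Gal4 driver lines at 45d of age. The lines were D42_Gal4, which drives the transgene in motoneurons (MN), M1B_Gal4, which drives it in glia, and the D42 and M1B drivers together (MN+glia). Each line had 3 Affymetrix arrays, each hybridised with RNA from a pool of 40 flies, so that 9 of the 36 arrays in the series were compared. The arrays compared are all those labelled dSOD1 and 45d. dSOD1 is the control transgene of the study, whose other flies carry G85R, a disease-linked mutant of the human enzyme. All 9 arrays carried the transgene, and no line was without it. The flies were kept in vials of 10 at 25 degrees in a cycle of 12 h light and 12 h dark. Because the 3 lines have different driver insertions and different parents, the cells that express the transgene and the genetic background of the line cannot be told apart in any comparison below.

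The Gal4 protein of yeast binds UAS sites and switches on the gene placed behind them, so that a driver line decides where a transgene is made. Motoneurons carry commands from the central nervous system to muscle, and glia wrap, feed and insulate neurons. Inbred or separately kept fly stocks are known to differ in the expression of detoxification enzymes, digestive enzymes, immune peptides and many other genes whose products lie outside the nervous system.

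Expression was given as log2 signal per probe set, so that 1 unit is a 2-fold difference in signal. Without the array's controls there remained 18769 probe sets for fly transcripts, and 13647 of them carried 1 gene symbol, for 11982 genes. The 9 arrays had medians between 6.45 and 6.54. Within a line the arrays differed little, with a median SD of 0.0969 over the probe sets and a 95th percentile of 0.183. The difference between the 3' and 5' probe sets of GAPDH, a sign of RNA integrity and labelling, was 1.75 to 1.84 in the MN line, 1.72 to 1.93 in the glia line and 1.96 to 2.17 in the MN+glia line. For actin the same measure was 2.66 to 3.07 in the MN line, 2.73 to 2.74 in the glia line and 2.80 to 3.25 in the MN+glia line. The MN+glia and MN arrays thus overlapped for actin but not for GAPDH. The part of RNA integrity and labelling in the results for the MN+glia line was not tested. No detection calls were used, so a value near 4, below the lower quartile of the arrays, may be background, and the fold of such a gene has no bound. In RNA of whole flies, fewer cells of a type and less RNA per cell cannot be told apart.

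All 3 lines differed from each other in many probe sets, most by little. At an adjusted p of at most 0.05 in limma, 3809 probe sets differed between the glia and MN lines (20.3% of those tested), of which 1873 were higher (9.98%) and 1936 lower (10.3%) in the glia line. Between the MN+glia and MN lines 2473 differed (13.2%), 1411 higher (7.52%) and 1062 lower (5.66%) in the MN+glia line. Between the MN+glia and glia lines 3880 differed (20.7%), 2177 higher (11.6%) and 1703 lower (9.07%) in the MN+glia line. The share that was higher among the called probe sets of glia against MN was 49.2%, and 62.2% after cyclic loess normalisation, and that of MN+glia against glia was 56.1% and 47.7%, so no balance of directions is read from either. Differences of at least 2-fold were far fewer: 52 higher (0.277%) and 142 lower (0.757%) for glia against MN, 1.03% in all. They were 31 higher (0.165%) and 69 lower (0.368%) for MN+glia against MN, 0.533% in all, and 105 higher (0.559%) and 61 lower (0.325%) for MN+glia against glia, 0.884% in all. The 3 comparisons share arrays in pairs, and each gene is therefore described by its levels in all 3 lines. The count for MN+glia against MN was 1604 without MN+glia replicate 2.

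The MN line stood apart in a small set of genes of mixed function, among them the P450 genes Cyp12d1-d and Cyp6a17, the esterase alpha-Est2, the predicted lipase CG11598 and the UDP-glycosyltransferase Ugt49B1. All 3 MN arrays lay at least 2-fold above all 6 other arrays for 18 probe sets (0.0959%) and at least 2-fold below them for 12 (0.0639%). Cyp12d1-d, a cytochrome P450 of the kind that oxidises foreign compounds, read 10.38, 10.45 and 10.51 in the MN line, 6.30, 6.36 and 6.22 in the glia line and 6.28, 6.17 and 6.32 in the MN+glia line. The MN arrays were thus high and the other 6 formed a single low group, with a difference of -4.15 ± 0.10 (SE) for glia against MN, or 17.8-fold, at an adjusted p of 1.4e-24. Cyp12d1-d has a near-identical neighbour in the fly genome, and signal from the pair cannot be separated on the array. Cyp6a17, a P450 known for its part in temperature preference, showed the opposite arrangement. It read 4.17, 4.02 and 3.86 in the MN line against 9.22, 9.25 and 9.21 in the glia line and 9.16, 9.21 and 9.12 in the MN+glia line. The MN values lie at the lower end of the array and the other 6 together far above them, and the difference was 5.21 ± 0.08 for glia against MN (adjusted p = 7.7e-30, with no fold given because the MN values may be background) and 5.15 ± 0.08 for MN+glia against MN.

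Further genes followed the same division of MN against the other lines. CG4650, annotated as a serine protease homolog, read 7.11, 7.15 and 7.24 in the MN line and between 3.52 and 3.88 in the other 6 arrays (difference -3.51 ± 0.11 for glia and -3.47 ± 0.11 for MN+glia, adjusted p = 4.9e-21 for the first). alpha-Est2, one of a cluster of carboxylesterases, read 7.57, 7.69 and 7.72 in the MN line and between 4.26 and 4.58 elsewhere. CG11598, a predicted lipase, read 9.08, 8.90 and 8.94 in the MN line and between 5.66 and 5.98 elsewhere. In all 3 genes the MN arrays were high without overlap. The UDP-glycosyltransferase Ugt49B1, of a family that attaches sugars to small molecules for disposal, was low in the MN line instead. Its values were 7.62, 7.75 and 7.69 in the MN line, 10.54, 10.56 and 10.75 in the glia line and 10.26, 10.15 and 10.36 in the MN+glia line. Here the 3 lines did not overlap at all, with the glia line 2.93 ± 0.08 and the MN+glia line 2.57 ± 0.08 above the MN line and 0.36 ± 0.08 between them (adjusted p = 0.00084). Ugt35C1 (means 8.28, 10.32 and 9.98 in MN, glia and MN+glia) and Ugt49C1 (7.19, 8.96 and 8.61) had the same order. Among genes of the nervous system, wrapper, a cell-surface protein of midline glia that ensheath axons, was higher in the MN line. It read 6.75, 6.78 and 6.84 there, 5.52, 5.52 and 5.88 in the glia line and 5.50, 5.51 and 5.73 in the MN+glia line, with differences of -1.15 ± 0.11 and -1.21 ± 0.11 from the MN line (adjusted p = 3.9e-09 and 1.9e-09). Fst, Frost, a gene known for its response to cold, was low in the MN line, at 7.58, 7.35 and 7.05, against 9.48, 9.64 and 9.73 in glia and 9.45, 9.10 and 9.65 in MN+glia. LysP, a lysozyme, and Gr43a, a fructose receptor, were lower than in the MN line by 1.81 and 1.55 log2 units in the glia line and by 2.16 and 1.73 in the MN+glia line.

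**Figure D1:**
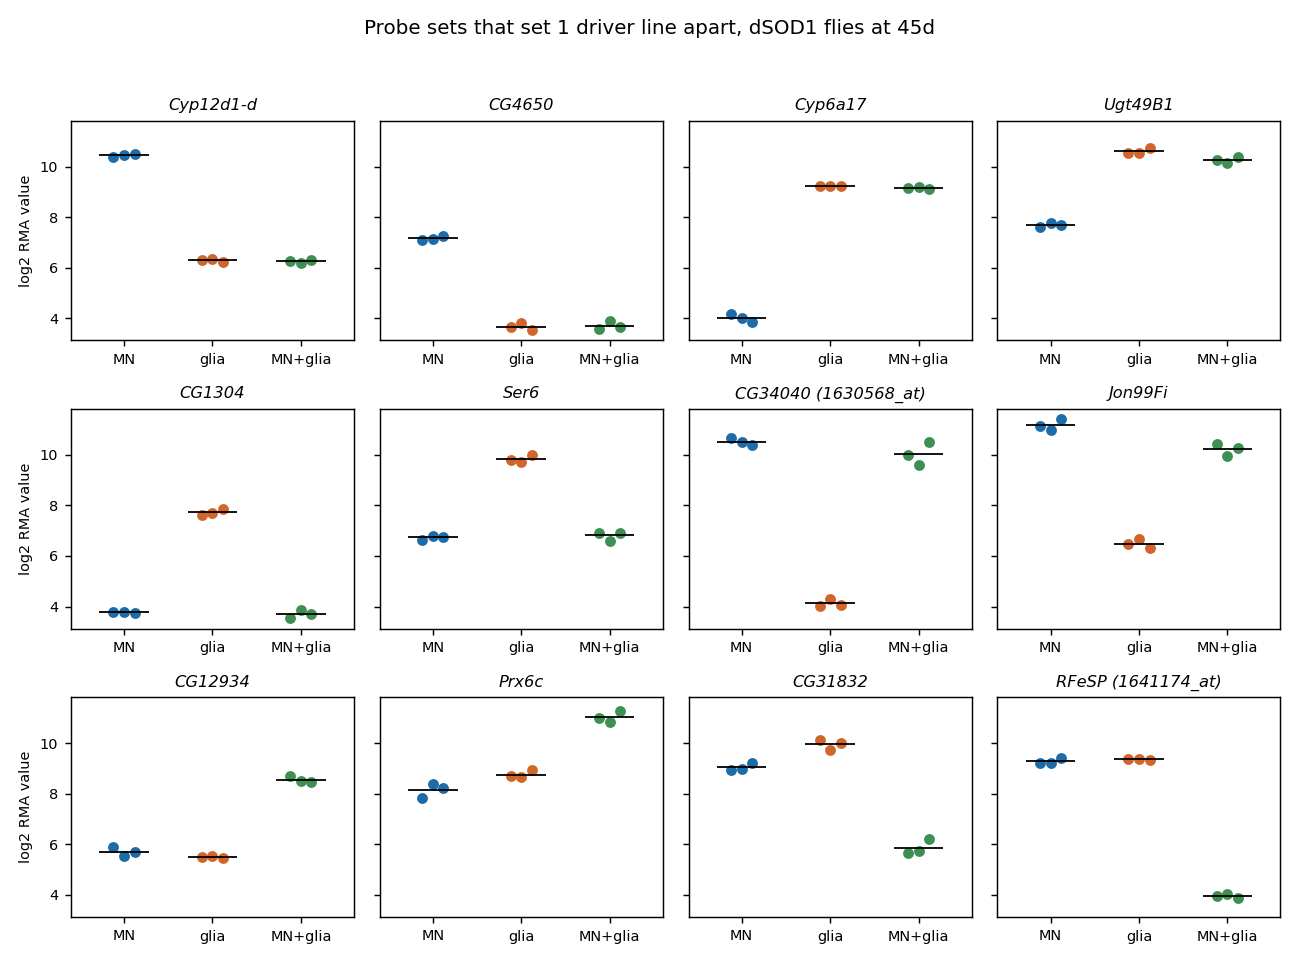
Log2 signal of 12 probe sets in the 9 arrays, with 1 dot per array, a black line at the mean of each line's 3 arrays and the same vertical axis in every panel. The first row holds probe sets in which the MN line stands apart (Cyp12d1-d at 10.38 to 10.51 against at most 6.36 elsewhere). The second holds those in which the glia line does (Jon99Fi at most 6.65 against at least 9.97). The third holds those in which the MN+glia line does (1 probe set of RFeSP at most 4.05 against at least 9.21). RFeSP and CG34040 each have another probe set, not shown, that disagrees with the one drawn.

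The glia line stood apart more often, chiefly by low values: 37 probe sets lay at least 2-fold below all 6 other arrays (0.197%) and 17 at least 2-fold above them (0.0906%). The high genes included 2 serine protease genes that are neighbours on the X chromosome. CG1304 read 3.78, 3.80 and 3.74 in the MN line, 7.61, 7.71 and 7.87 in the glia line and 3.53, 3.85 and 3.70 in the MN+glia line. Only the glia arrays were clear of the lower end of the array, and the difference was 3.95 ± 0.08 against MN and -4.04 ± 0.08 for MN+glia against glia (adjusted p = 1.9e-25 and 1.1e-25). Ser6 beside it read 6.64, 6.80 and 6.76, then 9.81, 9.72 and 10.01, then 6.90, 6.61 and 6.93 in the same order of lines, a difference of 3.11 ± 0.16 for glia against MN (adjusted p = 6.5e-16). Both genes were thus about as high above the MN line as above the MN+glia line. dyw, also on the X chromosome, had means that were 2.67 ± 0.11 higher in the glia line than in the MN line and 2.62 ± 0.11 higher than in the MN+glia line.

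Among the low genes were the Jonah serine proteases, which digest food proteins in the gut. Jon99Fi read 11.13, 10.98 and 11.42 in the MN line, 6.48, 6.65 and 6.33 in the glia line and 10.45, 9.97 and 10.27 in the MN+glia line. The glia arrays were low without overlap, by 4.69 ± 0.37 against MN (adjusted p = 3e-11) and by 3.74 ± 0.37 against MN+glia (adjusted p = 5.1e-09), while the MN+glia and MN lines did not pass the test (-0.95 ± 0.37, adjusted p = 0.088). Jon65Aii read 10.62, 10.32 and 10.73, then 7.31, 7.76 and 7.31, then 10.36, 10.40 and 10.15. It was 3.10 ± 0.13 lower in the glia than in the MN line and 2.84 ± 0.13 lower than in the MN+glia line. For CG34040 the probe sets disagreed. The first read 10.69, 10.52 and 10.39 in the MN line, 4.03, 4.29 and 4.07 in the glia line and 10.01, 9.61 and 10.51 in the MN+glia line, whereas the second had line means that did not differ between glia and MN (0.56 ± 0.35, adjusted p = 0.25), so a low transcript level in the glia line is not read from the first.

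Other genes low in the glia line had no tie to digestion. CG31810 read 9.43, 9.39 and 9.38 in the MN line, 6.34, 5.80 and 6.42 in the glia line and 8.73, 8.69 and 8.66 in the MN+glia line. The 3 lines did not overlap, with a difference of -3.22 ± 0.11 for glia against MN (adjusted p = 1.4e-20) and 2.51 ± 0.11 for MN+glia against glia. CARPB, a carbonic anhydrase-related protein, read 7.83, 7.59 and 7.68, then 5.63, 5.62 and 5.61, then 7.87, 7.87 and 7.95 on 1 of its probe sets, while the other stayed near the lower end of the array. Atg17, which helps to start autophagy, had means of 7.57, 5.39 and 7.50 in MN, glia and MN+glia, and Eip63E, a cyclin-dependent kinase, 9.06, 7.03 and 8.76. In both genes glia lay about as far below MN (2.17 ± 0.21 and 2.03 ± 0.19) as below MN+glia (2.10 ± 0.21 and 1.73 ± 0.19), and no interaction with age or transgene was called. CG15263 was the opposite, high in glia at 10.48, 10.48 and 10.56, against 8.52, 8.36 and 8.27 in MN and 7.67, 7.03 and 7.75 in MN+glia.

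The MN+glia line stood at least 2-fold above all 6 other arrays for 3 probe sets (0.016%) and at least 2-fold below them for 6 (0.032%). CG12934 read 5.89, 5.55 and 5.70 in the MN line, 5.51, 5.53 and 5.45 in the glia line and 8.69, 8.51 and 8.48 in the MN+glia line. The last arrays were high by 2.85 ± 0.12 against MN (adjusted p = 3.4e-18) and by 3.06 ± 0.12 against glia (adjusted p = 9.5e-19), while MN and glia overlapped. Prx6c, a peroxiredoxin, which breaks down peroxides, read 7.84, 8.39 and 8.21 in the MN line, 8.70, 8.66 and 8.93 in the glia line and between 10.85 and 11.27 in the MN+glia line. The MN+glia arrays were higher by 2.90 ± 0.11 and 2.28 ± 0.11 (adjusted p = 2.4e-19 and 1.9e-16), and glia also exceeded MN by 0.62 ± 0.11. CG31832 was the reverse, at 8.95, 8.97 and 9.21 in MN, 10.12, 9.74 and 10.03 in glia and 5.67, 5.73 and 6.21 in MN+glia. RFeSP, the Rieske iron-sulphur protein of respiratory complex III, was low on 1 of its probe sets: 3.97, 4.05 and 3.89 in the MN+glia line against 9.21 to 9.43 in the MN and 9.32 to 9.40 in the glia line. Its other probe set had means of 12.26, 12.35 and 12.11 in MN, glia and MN+glia, so the probe sets disagree by far more than the spread between arrays. Against the mean of the MN and glia lines, 3246 probe sets differed in the MN+glia line (17.3%), and 28 were higher and 56 lower by at least 2-fold. CG12934 (2.96) and Prx6c (2.59) were among the highest genes of that comparison, and CG31832 (-3.64) and CG13155 (-2.54) among the lowest.

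Digestive enzymes differed as groups as well as singly. Of all probe sets, 20.3% were called for glia against MN, 13.2% for MN+glia against MN and 20.7% for MN+glia against glia. Counts of called list members, here and below, are to be read beside those shares. Of 28 digestive proteases, 20 were lower and 2 higher in the glia than in the MN line, with a median difference of -0.41, against 0.03 over all probe sets. In MN+glia against glia 15 were higher and 4 lower (median 0.33, against -0.02 over all), and in MN+glia against MN 2 were higher and 9 lower (median -0.15, against 0.01 over all). Trypsins took part beside the Jonah genes. epsilonTry, a gut trypsin, had means of 11.29 ± 0.06 (SD, n = 3), 9.77 ± 0.32 and 11.17 ± 0.16 in MN, glia and MN+glia, and zetaTry 8.53, 7.91 and 8.46. The Jonah pair Jon25Bi and Jon25Bii was instead low in both lines with the M1B driver, at means of 12.68, 11.51 and 11.85 and of 12.80, 11.17 and 11.39. The 12 alpha-amylases and maltases, which break down starch and sugars, followed another order. In the MN+glia line 8 were lower than in the MN line and none was higher (median -0.47), 8 were lower and 1 higher than in the glia line (median -0.48), and only 1 differed between glia and MN. Mal-B1, a maltase, had means of 8.31, 8.61 and 7.33 (MN+glia against glia -1.28, with -0.98 against MN). Of 21 lipases and lipid storage genes, 10 were lower and 1 higher in MN+glia than in MN (median -0.25), 8 lower and 3 higher in glia than in MN (median -0.06), and 5 higher and 5 lower in MN+glia than in glia (median -0.08). CG6283, a predicted lipase, had means of 11.34 ± 0.03, 12.13 ± 0.19 and 10.59 ± 0.35, and Lsd-2, a lipid droplet coat protein, 10.53, 10.06 and 10.84. The summed signal of the protease list lay between 17.0 and 17.1 in the MN, 16.6 and 16.7 in the glia, and at 16.9 in the MN+glia arrays on the log2 scale.

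The enzymes that handle foreign compounds differed in both directions. Their counts stand beside 20.3%, 13.2% and 20.7% called over all probe sets for glia against MN, MN+glia against MN and MN+glia against glia. Of 85 P450 probe sets, 14 were higher and 19 lower in glia than in MN (median -0.00), 11 higher and 24 lower in MN+glia than in MN (median -0.05), and 11 higher and 21 lower in MN+glia than in glia (median -0.06). Beyond Cyp12d1-d and Cyp6a17, Cyp6a2 had means of 7.69, 8.58 and 9.11 in MN, glia and MN+glia, Cyp4p1 10.12, 8.97 and 9.06, and Cyp4d1 8.79, 8.35 and 9.64. The 36 probe sets of glutathione transferases, which couple glutathione to reactive compounds, were more one-sided. In the MN+glia line 15 were lower and 2 higher than in the MN line (median -0.19), and 16 were lower and none higher than in the glia line (median -0.25), while glia against MN gave 10 higher and 5 lower (median 0.08). GstE7 had means of 10.43, 10.70 and 9.82, GstZ2 7.92, 8.44 and 7.53, and GstE1 10.42, 11.42 and 10.66. The 35 UDP-glycosyltransferases gave 9 higher and 7 lower for glia against MN (median 0.11), 7 and 7 for MN+glia against MN (median -0.03), and 3 and 11 for MN+glia against glia (median -0.08). The 13 alpha-esterases gave 3 higher and 2 lower, 1 and 3, and 1 and 3 in the same order, with medians of -0.08, -0.12 and -0.08. Among these 4 families the glutathione transferases had the medians farthest from those of all probe sets in both comparisons with the MN+glia line.

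Most probe sets of the circadian clock list were low in the glia line. The clock is a feedback loop in which Clk and cyc activate per and tim, whose products return to block them, while vri and Pdp1 adjust Clk. Of 14 probe sets of 12 clock genes, 9 were lower and 1 higher in glia than in MN (median -0.54), and 9 were higher and 2 lower in MN+glia than in glia (median 0.81), while MN+glia against MN gave 4 higher and 1 lower (median 0.08). On 1 of its probe sets tim read 10.34, 10.47 and 10.60 in the MN line, 8.90, 8.88 and 9.07 in the glia line and 10.72, 10.82 and 10.91 in the MN+glia line. The lines did not overlap, with glia 1.52 ± 0.11 below MN (adjusted p = 5.3e-12) and MN+glia 1.87 ± 0.11 above glia (adjusted p = 5.6e-14) and 0.35 ± 0.11 above MN (adjusted p = 0.033). The other probe set of tim had means of 6.08, 5.03 and 6.42, in the same order. vri read 10.08, 10.12 and 10.23, then 9.13, 9.07 and 9.14, then 10.70, 10.55 and 10.67, the same order with gaps of 1.03 ± 0.12 and 1.53 ± 0.12 below MN and MN+glia (adjusted p = 2e-07 and 1.1e-10). per read 6.73, 6.65 and 6.83, then 6.23, 6.50 and 6.21, then 7.12, 7.27 and 7.25. Its excess in MN+glia over glia was 0.90 (adjusted p = 4.4e-06), while the excess over MN of 0.48 (adjusted p = 0.012) missed the threshold without MN replicate 2 (0.0564) or without MN+glia replicate 2 (0.0549). Clk (means 8.50, 7.57 and 8.37) and Pdp1 (9.26, 8.43 and 9.33) were low in glia by 0.93 ± 0.08 and 0.83 ± 0.11, and both probe sets of cwo, a repressor in the same loop, were lower in glia than in MN by 0.65 and 0.75. Pdf, the peptide through which clock neurons signal to each other, did not follow them, at means of 8.61, 8.94 and 8.93. cry, the blue-light receptor that resets the clock, went another way, with means of 9.74, 9.77 and 9.48 and a lower level in MN+glia only. The levels of clock genes cycle through the day, and the hour at which the flies were frozen is not given in the sources used here.

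Neuronal and glial markers were compared because the drivers act in those cells. elav, an RNA-binding protein found in neurons, read 8.69, 8.93 and 8.07 in the MN line, 6.65, 6.56 and 6.69 in the glia line and 8.84, 8.21 and 8.45 in the MN+glia line. The glia arrays were low without overlap, by 1.93 ± 0.21 against MN (adjusted p = 3.7e-08) and by 1.87 ± 0.21 against MN+glia (adjusted p = 9.1e-08). Other neuronal genes moved less. Of 33 neuronal probe sets 11 were lower and none higher in glia than in MN (median -0.07), 8 higher and 3 lower in MN+glia than in MN (median 0.07), and 19 higher and none lower in MN+glia than in glia (median 0.31). ChAT, which makes acetylcholine, had means of 7.59, 7.39 and 7.88 in MN, glia and MN+glia, nSyb, a vesicle fusion protein, 7.86, 7.09 and 7.28, and the vesicular monoamine transporter Vmat 6.91, 5.80 and 6.87. Of 21 probe sets of motoneuron and neuromuscular genes 8 were lower and none higher in glia than in MN (median -0.04), 2 higher and 2 lower in MN+glia than in MN (median 0.05), and 7 higher and 2 lower in MN+glia than in glia (median 0.14). zfh1, a motoneuron transcription factor, had means of 7.45, 6.80 and 7.51. The 24 glial probe sets gave 1 higher and 5 lower for glia against MN (median -0.06), 4 and 2 for MN+glia against MN (median 0.05), and 10 and 2 for MN+glia against glia (median 0.16). For these neuronal, motoneuron and glial counts, the shares called over all probe sets were 20.3%, 13.2% and 20.7% in that order. repo, the transcription factor that defines most glia, read at means of 8.49, 8.38 and 8.70, with 0.32 between MN+glia and glia as its one called difference. The summed signal of the neuronal list lay at 13.1 to 13.3 in MN, 12.8 to 12.9 in glia and 13.3 in MN+glia, and that of the glial list at 13.9, 13.8 and 14.0, and the part of cell numbers in the results was not tested.

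**Figure D2:**
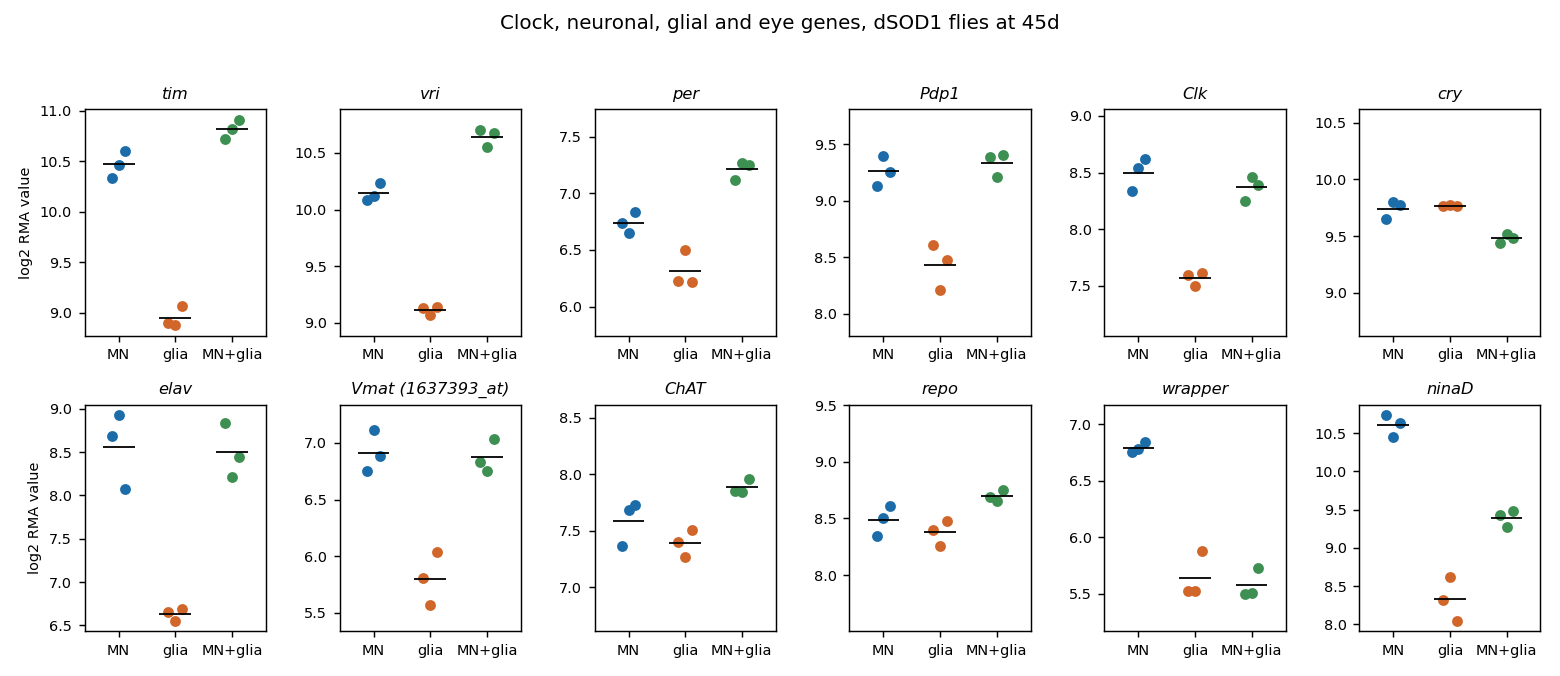
Log2 signal of 6 clock genes and of genes for neurons, glia and carotenoid uptake in the 9 arrays, with 1 dot per array and a black line at each line's mean. Each panel has its own vertical range of at least 2 log2 units, and tim, vri and elav show the glia arrays below all others (tim at most 9.07 against at least 10.34), whereas the means of repo lie between 8.38 and 8.70.

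Several antimicrobial peptides, which the fat body releases into the blood after infection, were high in the glia line. Of 12 peptides 5 were higher and none lower in glia than in MN (median 0.39), none was higher and 9 were lower in MN+glia than in glia (median -0.65), and 1 was lower in MN+glia than in MN (median -0.19). DptB, a diptericin active against Gram-negative bacteria, read 8.03, 6.77 and 7.34 in the MN line, 11.37, 12.27 and 9.12 in the glia line and 6.70, 6.82 and 7.75 in the MN+glia line. All glia arrays lay above all others but were themselves spread over more than 3 log2 units, with replicate 3 the lowest. The difference was 3.54 ± 0.74 against MN (adjusted p = 0.00072) and -3.83 ± 0.74 for MN+glia against glia (adjusted p = 0.00031). Mtk, metchnikowin, read 9.73, 8.51 and 8.61, then 12.66, 13.30 and 10.82, then 8.25, 8.72 and 9.19, and was 3.31 ± 0.64 higher in glia than in MN (adjusted p = 0.00026). Single glia arrays weighed on these sizes: without glia replicate 3 the differences from MN were 4.44 for DptB and 4.03 for Mtk, and those of MN+glia from glia -4.73 and -4.26, and without glia replicate 2 the DptB differences were 2.86 and -3.15, all still called. The insect defensin Def had no such spread within the glia line, at 9.22, 8.89 and 9.02, against 6.83, 6.50 and 7.39 in MN and 5.65, 5.67 and 7.56 in MN+glia (adjusted p = 0.00012 and 3.2e-06). Drs, drosomycin, the antifungal target of the Toll pathway, read 11.57, 11.25 and 11.02 in MN, 12.18, 12.53 and 11.37 in glia and 10.65, 10.64 and 11.07 in MN+glia. Its glia and MN arrays overlapped (0.75, adjusted p = 0.2), and the glia excess was called only against MN+glia (adjusted p = 0.025). PGRP-SB1, which cleaves bacterial peptidoglycan, was higher in glia than in MN by 1.16 ± 0.26 and than in MN+glia by 1.52 ± 0.26. The 30 probe sets of peptidoglycan recognition and immune signalling genes as a whole gave 5 higher and 4 lower (median -0.01), 2 and 4 (median -0.02), and 5 and 8 (median -0.03) for glia against MN, MN+glia against MN and MN+glia against glia. The 9 Bomanin-type peptides gave 3 higher and none lower (median 0.25), 2 and none (median 0.04), and none and 1 (median -0.19) in that order. In some fits with 1 array left out, BomBc2 and BomS2 were no longer called for glia against MN. The same held for BomS4 and BomS2 in MN+glia against MN. The summed signal of the antimicrobial peptide list was 13.1 to 13.3 in MN, 13.6 to 14.8 in glia and 12.8 to 13.1 in MN+glia.

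**Figure D3:**
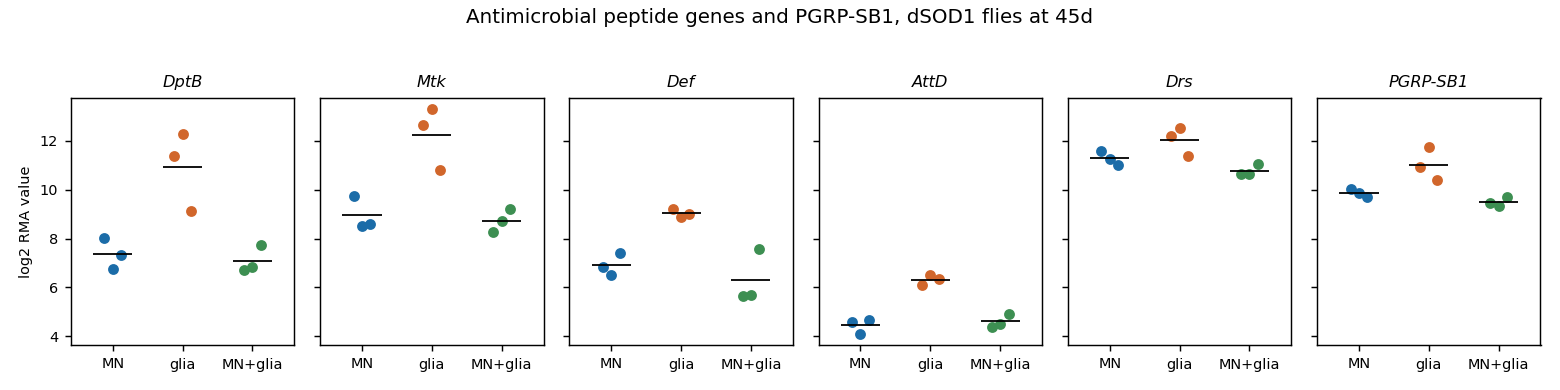
Log2 signal of 6 immune effector genes in the 9 arrays on a shared vertical axis, with 1 dot per array and a black line at each line's mean. The glia arrays of DptB lie between 9.12 and 12.27 and those of the other lines at or below 8.03, while the glia arrays of Drs overlap those of the MN line.

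The carotenoid genes ninaD and ninaB and some genes of phototransduction were higher in the MN line than in one or both of the others. Fly photoreceptors need vitamin A made from dietary carotenoids, which ninaD takes up and ninaB cleaves. ninaD read 10.74, 10.45 and 10.64 in the MN line, 8.31, 8.62 and 8.05 in the glia line and 9.42, 9.27 and 9.48 in the MN+glia line. The 3 lines did not overlap, with a difference of -2.28 ± 0.14 for glia (adjusted p = 5.2e-14) and -1.21 ± 0.14 for MN+glia from MN. ninaB had means of 8.33, 7.36 and 7.31, low in both lines with the M1B driver. Of 27 phototransduction probe sets 14 were lower and 4 higher in glia than in MN (median -0.22), 8 lower and 1 higher in MN+glia than in MN (median 0.02), and 9 higher and 2 lower in MN+glia than in glia (median 0.07). The adaptor inaD had means of 9.21, 8.67 and 8.50, and the arrestin Arr2 13.76, 13.48 and 13.51. The summed signal of the list was 15.0 in MN, 14.7 to 14.8 in glia and 14.7 to 14.8 in MN+glia. Of 22 probe sets of eye pigment genes, 2 were higher and 4 lower in glia than in MN (median -0.01), 1 and 2 in MN+glia than in MN (median -0.09), and 3 and 4 in MN+glia than in glia (median -0.09). The shares called over all probe sets were 20.3%, 13.2% and 20.7% in that order. Among the eye pigment genes se, sepia, an enzyme of red pigment synthesis, had means of 7.13, 5.77 and 5.94 and was lower than in MN by 1.37 ± 0.11 and 1.19 ± 0.11.

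Genes of neuropeptides and insulin signalling differed in both directions, more of them lower than higher in glia than in MN. Of 27 probe sets of neuropeptides and receptors of feeding hormones 12 were lower and 4 higher in glia than in MN (median -0.22), 10 higher and 4 lower in MN+glia than in glia (median 0.14), and 3 lower and 1 higher in MN+glia than in MN (median 0.04). foxo, the transcription factor that insulin signalling holds out of the nucleus, had means of 9.05 ± 0.16, 7.90 ± 0.02 and 8.90 ± 0.20, a difference of -1.15 ± 0.16 (SE) for glia against MN (adjusted p = 1.8e-06). InR, the insulin receptor, had means of 8.77, 8.19 and 8.87, and ITP, an ion transport peptide, 9.08, 8.40 and 9.20. The insulin-like peptide genes Ilp7 and Ilp5 went the other way. Ilp7 was called higher in glia than in MN, but not without glia replicate 2 (0.30, adjusted p = 0.0639) or MN replicate 1 (0.27, adjusted p = 0.0696). Ilp5 was called lower in MN+glia than in glia, but not without MN+glia replicate 2 (-0.35, adjusted p = 0.0596). Lst, the hormone limostatin, was instead low in MN+glia, at 11.57, 11.37 and 10.77. Of 33 juvenile hormone and ecdysone probe sets 7 were lower and 1 higher in glia than in MN (median -0.06), 2 lower and none higher in MN+glia than in MN (median -0.04), and 6 higher and 1 lower in MN+glia than in glia (median 0.04), shares near the 20.3%, 13.2% and 20.7% over all probe sets or under them. On 1 of its probe sets the nuclear receptor ftz-f1 had means of 8.16 ± 0.29, 5.43 ± 0.16 and 7.21 ± 0.44, with glia lower than MN by 2.72 ± 0.25 (adjusted p = 1.1e-09). The receptor EcR had means of 6.62, 5.81 and 6.43.

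Among the proteins that the fat body stores or secretes, Lsp2 and Obp99b varied widely within the MN+glia line. Lsp2, a storage protein of the blood, read 9.37, 9.75 and 9.55 in MN, 11.31, 11.27 and 11.33 in glia and 7.69, 6.79 and 9.88 in MN+glia. The glia arrays were the highest and the MN+glia arrays spread over 3 log2 units, so that only MN+glia against glia passed the test (-3.18 ± 0.64, adjusted p = 0.00045, with -2.52 without MN+glia replicate 2 and -4.06 without MN+glia replicate 3). Obp99b, an odorant-binding protein that the fat body also makes, read 9.97, 9.64 and 9.70 in MN, 11.21, 11.28 and 11.69 in glia and 9.65, 9.07 and 10.56 in MN+glia, with glia 1.63 ± 0.24 above MN (adjusted p = 7e-06). MN+glia replicate 3 was the highest of its line in both genes. Of the list's 17 probe sets 5 were higher and 1 lower in glia than in MN (median 0.18), 2 higher and 1 lower in MN+glia than in MN (median 0.04), and 3 higher and 7 lower in MN+glia than in glia (median -0.12). NLaz, a lipocalin, had means of 11.37, 11.61 and 10.84. The yolk protein Yp3, which males express weakly, had means of 7.21, 5.91 and 7.63. whe was lowest in MN+glia, at 9.18, 9.54 and 8.45, against 11.30, 11.25 and 10.95 in MN and 10.26, 10.29 and 10.26 in glia, with no overlap between lines.

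Antioxidant enzymes, the class to which the transgene belongs, differed between the lines in both directions. Over all probe sets 20.3% were called for glia against MN, 13.2% for MN+glia against MN and 20.7% for MN+glia against glia. Of 18 probe sets 2 were higher and 3 lower in glia than in MN (median 0.02), 1 higher and 6 lower in MN+glia than in MN (median -0.07), and 2 higher and 7 lower in MN+glia than in glia (median -0.05). Sod3, an extracellular superoxide dismutase, had means of 9.60 ± 0.03, 8.97 ± 0.01 and 9.01 ± 0.03 on 1 of its probe sets, lower in glia and MN+glia than in MN by 0.63 ± 0.05 and 0.60 ± 0.05. MsrA, which repairs oxidised methionine, had means of 9.45, 8.45 and 9.38. The mitochondrial enzyme Sod2 stood at 11.47, 11.44 and 11.26, and catalase, Cat, at 12.41, 12.42 and 12.41. The 16 metallothionein and iron probe sets gave 2 higher and none lower (median 0.07), 1 and 1 (median 0.04), and 1 and 1 (median -0.09) for glia against MN, MN+glia against MN and MN+glia against glia. The 17 heat shock probe sets gave 2 and 1 (median -0.02), 4 and none (median 0.05), and 2 and none (median 0.05).

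The medians of the mitochondrial lists had the same sign in each comparison and were small. Of 73 probe sets of mitochondrial ribosomal proteins 24 were lower and 3 higher in MN+glia than in glia (median -0.12), 14 higher and 5 lower in glia than in MN (median 0.08), and 6 lower and none higher in MN+glia than in MN (median -0.04). tko, a protein of the small mitochondrial ribosomal subunit, went against its list, with means of 9.31, 7.74 and 9.22 and glia lower than MN by 1.57 ± 0.06 (adjusted p = 2.7e-19). Of 88 respiratory chain and ATP synthase probe sets 18 were lower and 3 higher in MN+glia than in glia (median -0.07), 18 higher and 3 lower in glia than in MN (median 0.08), and 10 higher and 7 lower in MN+glia than in MN (median -0.01). ND-B8, a subunit of complex I, had means of 8.05, 8.76 and 8.29. The medians of both lists were at most 0.12 in size, against a median SD of 0.0969 between the arrays of a line. Over all probe sets 20.3% were called for glia against MN, 13.2% for MN+glia against MN and 20.7% for MN+glia against glia. As over all probe sets, no balance of directions is read from these counts.

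Muscle, testis and other tissue lists were also compared. Their counts stand beside shares over all probe sets of 20.3% for glia against MN, 13.2% for MN+glia against MN and 20.7% for MN+glia against glia. Of 40 muscle probe sets 10 were lower and 1 higher in glia than in MN (median -0.07), 5 higher and 2 lower in MN+glia than in MN (median 0.04), and 15 higher and 3 lower in MN+glia than in glia (median 0.18). sls, which encodes the fly titin, had means of 8.20 ± 0.11, 7.24 ± 0.19 and 8.21 ± 0.09 on 1 of its probe sets. Strn-Mlck, a muscle kinase, was low in both lines with M1B, at 9.06, 7.97 and 7.47. Of 31 testis probe sets 11 were higher and 1 lower in glia than in MN (median 0.19), 9 higher and none lower in MN+glia than in MN (median 0.16), and none differed between MN+glia and glia (median -0.02). The mitofusin fzo of spermatids had means of 6.65, 7.14 and 7.02. The 18 hemocyte and melanization probe sets gave 2 higher and 3 lower (median 0.09), 6 and 1 (median 0.12), and 5 and 2 (median 0.15) in the order glia against MN, MN+glia against MN and MN+glia against glia, and the prophenoloxidase PPO1 had means of 7.68, 7.73 and 8.04. The 51 odorant-binding proteins gave 11 and 4 (median 0.07), 8 and 6 (median -0.01), and 4 and 11 (median -0.08). The 186 probe sets of chemoreceptors gave 8 and 5 (median 0.04), 2 and 4 (median -0.01), and 1 and 6 (median -0.05), and 173 of them had a mean below 5, near the lower end of the array. The 33 accessory gland and seminal fluid proteins gave 2 and 7 (median -0.07), 5 and 4 (median -0.01), and 7 and 4 (median 0.09). The 108 cuticle proteins gave 10 and 6 (median 0.07), 5 and 4 (median -0.03), and 4 and 12 (median -0.10).

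The remaining lists are given for completeness, as higher and lower for glia against MN, MN+glia against MN and MN+glia against glia. The shares called over all probe sets were 20.3%, 13.2% and 20.7% in that order. The 11 Turandot and JAK/STAT genes gave 2 and none (median 0.03), 1 and none (median 0.09), and 2 and 1 (median 0.01). The 4 lysozymes gave none and 1 in each comparison (medians 0.06, -0.12 and -0.18), LysP being the lower gene each time. The 20 genes of lipid and fatty acid synthesis gave none and 3 (median -0.02), 1 and 3 (median -0.06), and 4 and 1 (median 0.02). The 43 proteasome probe sets gave 6 and 6 (median 0.02), 3 and none (median -0.00), and 5 and none (median -0.03). The 47 cytosolic ribosomal protein probe sets gave 6 and 1 (median 0.04), 4 and 1 (median -0.00), and none and 6 (median -0.03). The 18 glycolysis probe sets gave 3 and none (median -0.04), 3 and 1 (median 0.02), and 1 and 1 (median 0.02). The 23 probe sets of female germ line and eggshell genes gave 1 and none (median 0.07), none and none (median 0.01), and none and none (median -0.10), and 15 of them had a mean below 5.

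**Figure D4:**
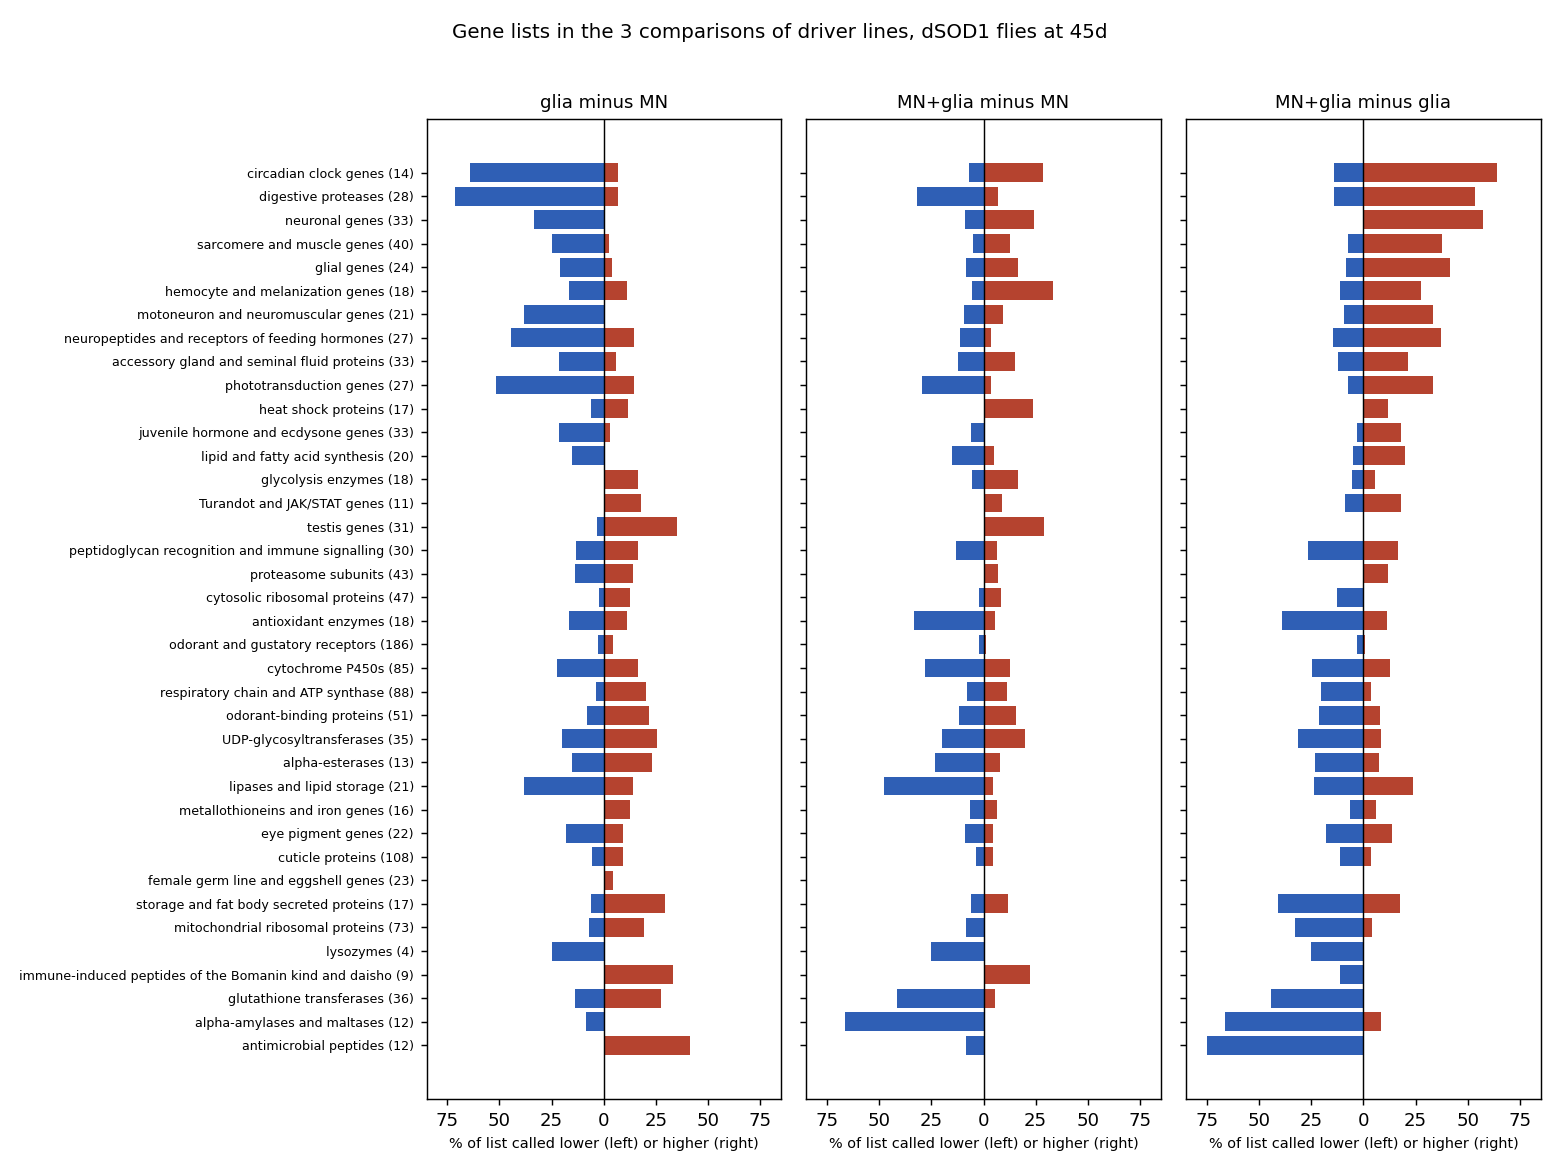
Share of each gene list's probe sets that were called lower (left of 0) and higher (right of 0) in the 3 comparisons, in percent, with the number of probe sets in brackets and the lists sorted by their median difference for MN+glia against glia. The clock and neuronal lists lie at one end (9 of 14 and 19 of 33 higher) and the antimicrobial peptides at the other (9 of 12 lower).

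Genes that differed between the lines were spread over all chromosome arms. The annotation of Release 6 of the fly genome was used only for the arm and the order of genes. On the 5 large arms between 23% and 25.8% of the probe sets with 1 symbol differed between glia and MN, between 14.6% and 18.1% between MN+glia and MN, and between 22.7% and 26.3% between MN+glia and glia. On the small chromosome 4, with 82 probe sets, the shares were 31.7% (5 higher and 21 lower), 8.54% (7 higher) and 45.1% (34 higher and 3 lower), with medians of -0.14, -0.00 and 0.22. Zip102B, a predicted zinc transporter on chromosome 4, went against that direction, at 6.64, 6.82 and 6.36 in MN, 8.01, 7.99 and 8.26 in glia and 5.76, 6.07 and 6.52 in MN+glia. Runs of 3 or more adjacent genes called in the same direction numbered 88, 38 and 80 in the 3 comparisons. Of 11888 genes in order, 3064, 2068 and 3070 were called. Where both genes of a neighbouring pair were called, 507 of 905, 283 of 438 and 500 of 875 pairs had the same direction. The number of runs that such shares alone would give was not computed, so no clustering of genes is read from the runs. The Ser6 and CG1304 pair belongs to a run of 4 genes higher in glia than in MN by 0.30 to 3.95, and CG9616 (means 4.10, 7.15 and 6.28) to another run of 4. A run of 5 adjacent genes, CG17944 and 4 testis genes of the Mst84D cluster, was higher in glia than in MN by 0.25 to 0.95, but Mst84Db and Mst84Dd missed the threshold without MN replicate 1 (0.17 and 0.13, adjusted p = 0.171 and 0.271), and also without glia replicate 1 or glia replicate 3.

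The same driver lines were also measured at 5d with dSOD1 and at 45d with G85R. Those arrays did not enter the line means of the 45d dSOD1 comparison. They were in the same fit and shared its estimate of the spread, so the calls compared here are not fully independent. Of the 142 probe sets lower by at least 2-fold in glia than in MN, 89 were so at 5d (62.7%, and 71.8% of the 124 at 5d) and 95 in G85R flies (66.9%, and 65.5% of the 145 there). Of the 105 higher by at least 2-fold in MN+glia than in glia, 72 were so at 5d (68.6%, and 71.3% of 101) and 72 in G85R flies (68.6%, and 72.7% of 99). In the other directions the counts shared with flies of 5d were 22 of 52 (42.3%, and 52.4% of 42) for higher in glia than MN, 20 of 31 (64.5%, and 44.4% of 45) and 34 of 69 (49.3%, and 43.6% of 78) for higher and lower in MN+glia than MN, and 21 of 61 (34.4%, and 48.8% of 43) for lower in MN+glia than glia. With G85R flies the same 4 counts were 18 of 52 (34.6%, and 50% of 36), 14 of 31 (45.2%, and 48.3% of 29), 41 of 69 (59.4%, and 34.7% of 118) and 35 of 61 (57.4%, and 54.7% of 64). No test was made between these counts.

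The test of the difference itself, an interaction term in limma over 4 groups of arrays, called fewer probe sets. A probe set that was not called is not thereby shown to have the same difference in both. Among the sets of at least 2-fold above, the interaction with age was called for 13.3% to 47.8%. With the transgene it was called for 12.4% to 45.2%. Those sets were picked by the 45d dSOD1 difference, which also enters the interaction. The line difference at 45d was not that at 5d for 582 probe sets in glia against MN (3.1%), 524 in MN+glia against MN (2.79%) and 290 in MN+glia against glia (1.55%). It was not that of G85R flies for 267 (1.42%), 255 (1.36%) and 85 (0.453%). Cyp6a17, Cyp12d1-d, elav and CG12934 had none of these called, and elav had means of 8.51, 6.49 and 8.47 at 5d and 8.46, 6.39 and 8.24 in G85R flies in MN, glia and MN+glia. wrapper, by contrast, had means of 6.14, 6.21 and 6.40 at 5d (MN, glia and MN+glia) and 6.49, 6.64 and 6.59 in G85R flies, with MN the lowest of the 3. Its line difference for glia against MN was more negative at 45d than at 5d by 1.22 (adjusted p = 9.6e-06) and than in G85R flies by 1.30 (adjusted p = 4.2e-06). Dtg, a target gene of the growth factor Dpp, was another such gene. It read at most 6.33 in MN, 8.04, 8.11 and 8.08 in glia and 8.20, 7.99 and 8.10 in MN+glia, against means of 5.77, 6.05 and 5.81 at 5d and 6.54, 6.79 and 6.54 in G85R flies. The interaction for MN+glia against MN was 1.88 ± 0.16 with age and 1.92 ± 0.16 with the transgene (adjusted p = 1.4e-09 and 5.4e-10). In both genes the gap between the MN line and the others was thus larger at 45d with dSOD1 than at 5d or with G85R. ninaD and LysP kept the order of MN above the rest with a larger gap at 45d, by 1.64 log2 units for ninaD in glia against MN (adjusted p = 1.5e-06) and by 1.37 for LysP (adjusted p = 3.1e-09). CG7763 had means of 8.29, 4.11 and 5.05 at 45d and of 5.32, 4.23 and 4.21 at 5d. In G85R flies of 45d DptB had means of 10.19, 11.72 and 7.83 and Mtk 12.13, 12.81 and 9.52 in MN, glia and MN+glia. vir-1, a gene known to respond to virus infection, had means of 10.76, 11.65 and 11.98 here, with 9.58, 9.60 and 9.56 at 5d and 10.59, 10.49 and 10.72 in G85R flies, and its interactions for both comparisons with MN were called (0.86 and 1.24 with age, 0.98 and 1.09 with the transgene).

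**Figure D5:**
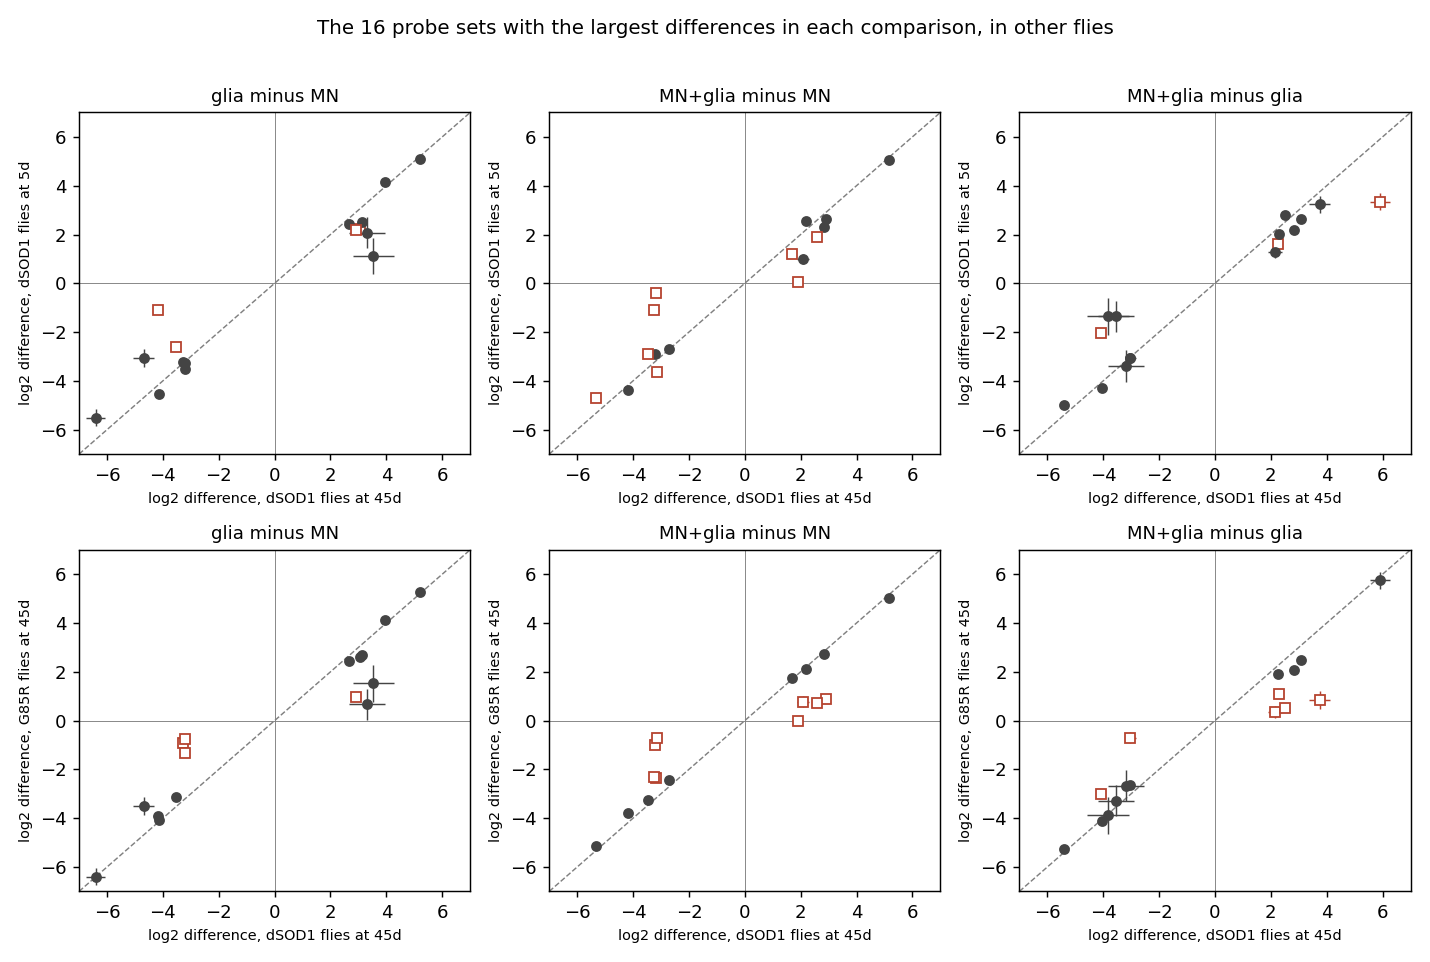
Difference between lines for the 16 probe sets with the largest differences in each comparison of dSOD1 flies at 45d (horizontal axis, log2) against the same difference at 5d (upper row) or in G85R flies at 45d (lower row), with bars of 1 SE and a dashed line where both are equal. Points on the line have the same difference in both, and open red squares are probe sets whose 2 differences passed the interaction test.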

How the data were processed

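RNA from whole flies was hybridised to Affymetrix Drosophila Genome 2.0 arrays. The deposited log2 values are those the authors made by RMA (background correction, quantile normalisation and summary per probe set) in Robin, as the study's methods state. A model with 1 mean for each group was fitted to all 36 arrays in limma 3.58.1 (R 4.3.3), with 24 residual degrees of freedom. The array labelled MN+glia G85R 5d replicate 2 stood apart in its GAPDH 3' to 5' difference (4.29) and stayed in that fit, which was repeated without it. The study's methods describe a degraded array in the glia line with that transgene and age instead, and the label was kept as given. Differences between lines, and their interactions with age and transgene, were called at a Benjamini-Hochberg adjusted p of at most 0.05 over 18769 probe sets, within each comparison. Folds come from log2 differences, and SE is that of the fit. On simulated data, glia against MN with 18769 probe sets, 89% of 100 probe sets changed 1.5-fold and 100% of 100 changed 2-fold were found, with 7 false calls.

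The members and the 38 gene lists were chosen with earlier results of these data known. The genes named were the 8 largest called in each direction of each pairwise comparison, the 3 largest for the midpoint and the interactions, up to 2 called members of each list in each direction, and runs of 3 or more neighbouring genes. Genes with 1 symbol only were named. Drs, Clk, Pdp1, cwo, Atg17, Eip63E, ChAT, repo, inaD, Arr2, EcR, InR, PPO1, Sod2, Cat, zetaTry, epsilonTry, Ugt49C1 and Zip102B lie outside that rule and were picked with their values known. The names on the platform's annotation gave 1 symbol for 13647 probe sets, several for 402 and none for 4720, and 13544 matched RefSeq Release 6. The gene the transgene encodes is not reported here.

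The labels number the arrays of each line 1 to 3. Same-numbered deviations correlated at 0.11, -0.26 and 0.19 between glia and MN, at 0.40, -0.11 and 0.20 between MN+glia and MN, and at 0.12, 0.12 and 0.33 between MN+glia and glia, so that only the last pair of lines was above 0.1 throughout, and the number as a block was an alternative. The study's methods call the arrays of a group independent biological replicates. Neither the methods nor the labels say that the pools came from separate cultures, and p-values measure the spread between these pools. Other normalisations, array weights, a variance trend, a filter on dim probe sets, 1 probe set per gene, fewer arrays and leaving out each array were also tried.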

Additional observations from a re-analysis of the deposited data

Results flagged for a closer look

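The values in this section are line differences in dSOD1 flies at 45d less the same difference in other flies, for genes that passed the interaction test in limma and were among the 8 largest in either direction of the line comparison or the 3 largest in either direction of the interaction. There were 57 such values, for 33 genes. Other named genes that passed it, such as wrapper, ninaD, LysP and vir-1, are not counted here. No explanation was tested.

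For glia against MN with age (45d less 5d), 9 of these genes were found. The difference was lower than in the other flies for CG7763 at -3.09, CG17192 at -2.13, CG33109 at -2.08 and CG4650 at -0.91. It was higher for Ugt49B1 at 0.75, CG9616 at 0.82, CG34040 (the probe set with like levels in glia and MN) at 2.10, AttD at 2.41 and MtnB at 2.45. The most distant was CG7763, whose line difference was -4.18 here and -1.09 at 5d (adjusted p = 2.4e-10).

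For MN+glia against MN with age, 12 of these genes were found. The difference was lower than in the other flies for CG31832 at -2.79, CG33109 at -2.65, whe at -2.13, CG7763 at -2.13, RFeSP (the probe set low in MN+glia) at -0.62 and CG4650 at -0.56. It was higher for CG11598 at 0.47, Ugt35C1 at 0.48, Ugt49B1 at 0.67, Yp1 at 1.64, Dtg at 1.88 and MtnB at 2.25. The most distant was CG31832, whose line difference was -3.18 here and -0.39 at 5d (adjusted p = 2.4e-12).

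For MN+glia against glia with age, 7 of these genes were found. The difference was lower than in the other flies for CG13947 at -2.58, Def at -2.10 and CG31832 at -2.06. It was higher for CARPB at 0.67, CG15239 at 1.53, Npc2d at 2.21 and CG34040 (the probe set low in glia) at 2.57. The most distant was CG13947, whose line difference was -1.61 here and 0.98 at 5d (adjusted p = 7.4e-06).

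For glia against MN with the transgene (dSOD1 less G85R), 7 of these genes were found. The difference was lower than in the other flies for CG11598 at -2.45, alpha-Est2 at -2.35 and CG31810 at -1.90. It was higher for Ugt49B1 at 1.95, fit at 1.97, Def at 2.11 and Alp8 at 2.67. The most distant was Alp8, whose line difference was 0.05 here and -2.62 in G85R flies (adjusted p = 1.3e-08).

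For MN+glia against MN with the transgene, 12 of these genes were found. The difference was lower than in the other flies for CG11598 at -2.43, alpha-Est2 at -2.20, whe at -2.10, CG7763 at -0.94 and CG31832 at -0.82. It was higher for Fst at 1.29, Ugt49B1 at 1.84, Dtg at 1.92, Prx6c at 2.01, CG31041 at 2.33, AttD at 2.37 and CG31809 at 2.80. The most distant was CG31809, whose line difference was -0.19 here and -2.99 in G85R flies (adjusted p = 1.3e-15).

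For MN+glia against glia with the transgene, 10 of these genes were found. The difference was lower than in the other flies for CG15263 at -2.33, CG13947 at -1.81, Lip3 at -1.56 and CG31832 at -1.09. It was higher for Prx6c at 1.18, CG12057 at 1.79, CG31810 at 1.98, MtnB at 2.17, Jon99Fi at 2.89 and CG31809 at 3.07. The most distant was CG31809, whose line difference was -0.01 here and -3.09 in G85R flies (adjusted p = 1.9e-16).

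Several of these genes are described above as genes that set 1 line apart. alpha-Est2 and CG11598 were higher in the MN line in G85R flies too, by 0.92 and 0.76 over the glia line. MtnB, a metallothionein that binds copper and other metals, was 0.47 higher in glia and 0.59 higher in MN+glia than in MN here, against -1.98 and -1.66 at 5d. Calls for the immune peptide AttD, for Yp1, for MtnB against G85R and for Lip3 were lost in some fits with 1 array left out. Both calls for the immune peptide Def were lost in most such fits. With the arrays of the comparison only, limma called neither Def interaction (adjusted p = 0.0597 with age and 0.0594 with the transgene). MtnB against G85R (0.0806) and Lip3 (0.185) were also lost there. Those refits took in only the 3 largest in each direction of each interaction. The other interactions of this section were not refitted. Among them were CG4650 and CG11598 for MN+glia against MN with age, at adjusted p = 0.0482 and 0.0422 in limma.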

How the results depend on the processing

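None of the refitted differences reversed its direction under any alternative tried. Of 454 named calls, 8 were lost under quantile normalisation, 5 under cyclic loess, 1 under array weights, 2 under a variance trend, 45 with the arrays of the comparison only and none without the array labelled MN+glia G85R 5d replicate 2, whose RNA appeared degraded, and none of 373 was lost when dim probe sets were left out or of 412 with 1 probe set per gene. Of 2958 calls refitted with 1 array left out, 292 were lost.

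Counts of called probe sets moved more. In the order glia against MN, MN+glia against MN and MN+glia against glia, leaving out 1 array gave 2742 to 3625, 1604 to 2436 and 2781 to 3390, and 2251 to 3280 for the midpoint. For the interactions with age it gave 393 to 823, 320 to 638 and 175 to 253, and with the transgene 191 to 229, 177 to 241 and 59 to 89. The lowest were without MN+glia 45d replicate 2 (1604), MN 45d replicate 2 (320) and glia 5d replicate 3 (175). Array weights gave 7220 for glia against MN, 3851 for MN+glia against MN, 2526, 2256 and 725 for the interactions with age and 1013, 738 and 278 for those with the transgene. The arrays of the comparison only gave 1634 for MN+glia against MN and 322 for its interaction with age. The cause was not tested.

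With the replicate number as a block, the pairing gave 4053, 2683 and 4018 probe sets, 3405 for the midpoint, 602, 567 and 281 for age and 267, 250 and 85 for the transgene. Of the 454 named calls 2 were lost under it, TbCMF46 and 1 of the probe sets of Tsf1 for MN+glia against glia. The share of higher calls moved by scaling from 40.4% to 64.3% and from 37.8% to 61.5% for age interactions. For transgene interactions it moved from 49.4% to 67.8%, from 60% to 48.4% and from 54.1% to 43%. The median of all probe sets was not computed after scaling. Low signals near the background limit what folds mean, and 3 arrays a line limit the precision.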
